A study of Nicotiana benthamiana with 6 samples.

Results

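The transcripts of *Nicotiana benthamiana* leaves that had received an empty vector were examined in the 3 mock libraries of a study of 6 RNA-seq libraries, as a description of what such a leaf expresses. Members were the unigenes, the non-redundant contigs of a de novo assembly, whose best protein matches in the NR database named a *Nicotiana* or *Solanum* species. They numbered 52512 of 167935 unigenes (31.3%) and were ranked by their mean FPKM, the read pairs counted on a unigene scaled to its length and to the total count of the library, over the 3 libraries. The first match was a *Nicotiana* protein for 50873 members, a *Solanum* protein for 1546 and a protein of another genus for 93.

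The plants were wild type and 5 weeks old, and the infiltrated leaves lay at the third and the fourth position below the youngest leaf. They were infiltrated with *Agrobacterium tumefaciens* strain LBA4404 that carried the empty binary vector pCAMBIA2200, at an OD600 of 1.0, and were collected 3 days later. Each mock library pooled RNA from 3 plants, so a value describes a pool and not a single plant. A library of leaves that received no bacteria was not analysed here, so what infiltration itself adds cannot be told apart from what the leaf expresses without it. All values below come from the mock libraries, and no comparison with the *MaWRKY45* overexpression libraries was made.

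Leaf mesophyll cells devote much of their messenger RNA to photosynthesis, above all to the small subunit of Rubisco, which fixes carbon dioxide, and to the chlorophyll a/b binding proteins that gather light. Infiltration brings living bacteria into the spaces between these cells. In tobacco, the acidic pathogenesis-related (PR) proteins are secreted into the same spaces during defence, and PR1a is a classical marker of the salicylic acid response.

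The total count was 14228090, 14285138 and 12031310 read pairs in mock replicates 1, 2 and 3, and members held 89.2, 90.1 and 92.2% of it. The unigene c147189_g1_i1, whose protein match is a banana WRKY factor and whose nucleotide match is a cloning vector, had 48.4, 23.4 and 51.8 FPKM in mock replicates 1, 2 and 3. Whether its counts fell on the vector-like or on the WRKY-like stretch was not tested, so these counts do not show that the libraries depart from their empty-vector label. The unigene is not a member. Replicate 2 stood apart from the other mock libraries. Across 26681 members with a mean of at least 1 FPKM, Pearson's correlation of log2(FPKM + 1) was 0.935 between replicates 1 and 3, 0.914 between replicates 1 and 2, and 0.906 between replicates 2 and 3. Of the 100 most abundant members of a library, replicates 1 and 3 shared 87, replicates 1 and 2 shared 72, and replicates 2 and 3 shared 65. Replicate 3 had fewer counts on unigenes outside the members that match ribosomal RNA (1.33, 1.34 and 0.377% of the total count in replicates 1, 2 and 3) or plastid sequence (1.00, 1.37 and 0.233%).

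Most members were rare and a small number carried much of the signal. No count was found in any mock library for 5223 members, and 20608 had a mean above 0 but under 1 FPKM. Between 1 and 10 FPKM lay 16578 members, between 10 and 100 FPKM 9083, and between 100 and 1000 FPKM 979. Only 41 members reached a mean of 1000 FPKM, and they held 15.9% of the summed FPKM of all members. The 979 members of the class below held 32.2%, and the 9083 members between 10 and 100 FPKM held the largest part, 41.3%. The 10 most abundant members held 8.81%, the top 100 held 21.9% and the top 1000 held 47.7%. The upper 50% of the summed FPKM came from 1153 members. Counts were detected in all 3 libraries for 32646 members and in 1 or 2 libraries for 14643. Many members are partial or alternative contigs of one gene, since 23347 of them share their first protein match with another member, so a level of a unigene is not always the level of a gene.

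Acidic PR proteins and Rubisco shared the top of the ranking. The most abundant member was the acidic beta-1,3-glucanase gi9 (c87418_g1_i1), a PR-2 enzyme that cleaves beta-1,3-glucans, with 10540, 6291 and 13583 FPKM in mock replicates 1, 2 and 3. The Rubisco small subunit (c88085_g1_i1) had 10045, 14966 and 5131 FPKM. Replicate 2 was thus the lowest library for the glucanase and the highest for the Rubisco subunit, and replicate 3 the reverse. PR1a (c120693_g1_i1) had 9546, 5239 and 11917 FPKM, and the acidic endochitinase Q (c120701_g1_i1), a PR-3 enzyme that cleaves chitin, had 8820, 5265 and 10189 FPKM. Both kept the order of the glucanase over the libraries. Their means were 10138 ± 3663 FPKM for the glucanase, 10047 ± 4917 for the Rubisco subunit, 8901 ± 3386 for PR1a and 8091 ± 2542 for the chitinase (SD, n = 3), so the order of these 4 members did not exceed the spread among libraries. In replicate 2 the Rubisco subunit ranked first, and in replicate 3 it ranked 4.

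**Figure D1:**
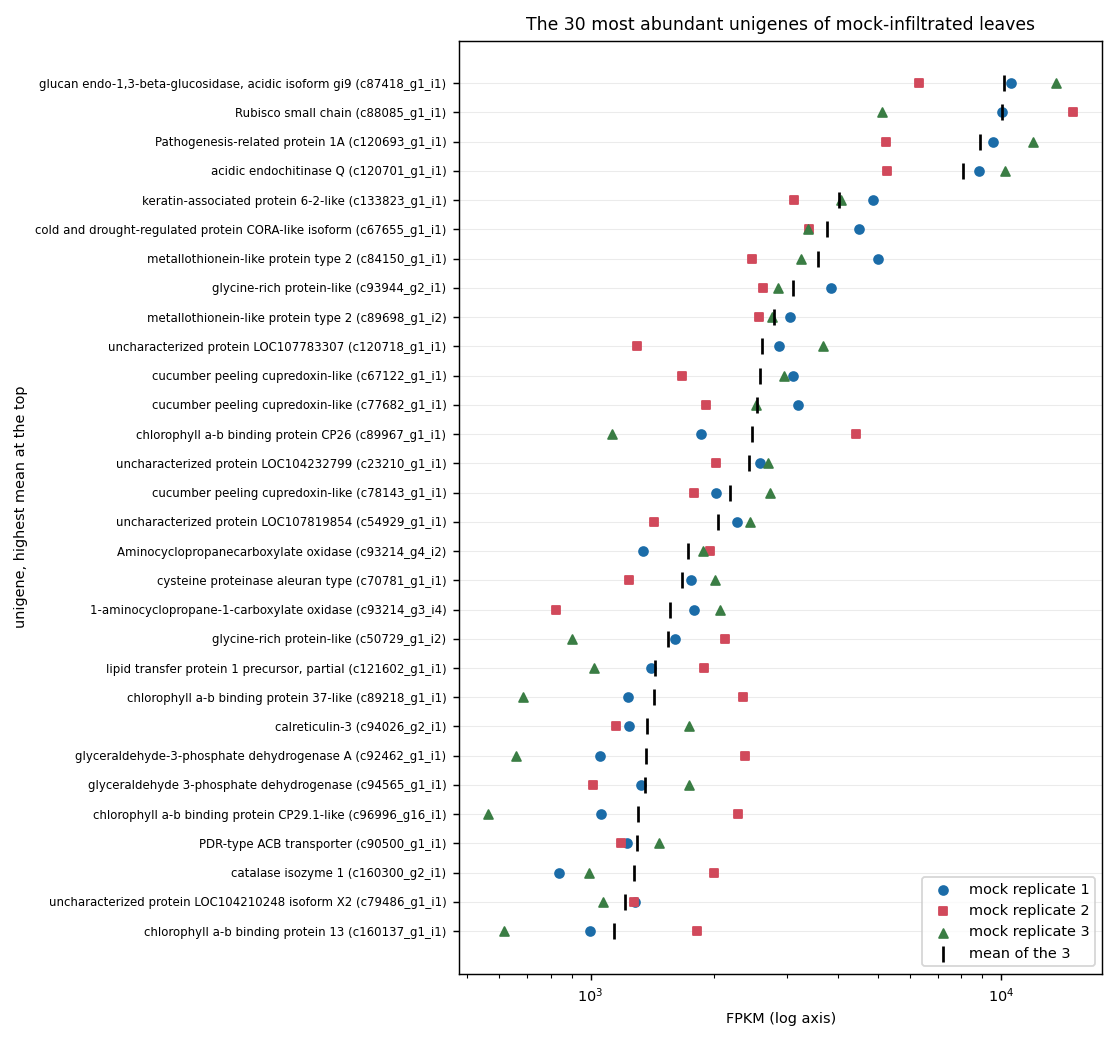
The 30 members with the highest mean FPKM, one row each with the highest at the top, on a logarithmic FPKM axis. Symbols are the 3 mock libraries and the vertical stroke is their mean. The 4 leading members lie between 5131 and 14966 FPKM, and the square of replicate 2 lies to the right for the Rubisco and chlorophyll binding proteins and to the left for the acidic PR proteins.

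Below these 4, the level dropped to 4026 ± 870 FPKM for a protein annotated as keratin-associated 6-2-like (c133823_g1_i1), with 4869, 3131 and 4078 FPKM in replicates 1, 2 and 3. That name comes from an animal protein family, and its role in leaves is not known from the annotation. A CORA-like protein (c67655_g1_i1), named after a cold- and drought-regulated glycine-rich protein of alfalfa, followed with 4516, 3401 and 3389 FPKM. A pair of type 2 metallothioneins, small cysteine-rich proteins that bind metals, ranked 7 and 9. The unigene c84150_g1_i1 had 4997, 2472 and 3259 FPKM and c89698_g1_i2 had 3060, 2575 and 2769 FPKM. Replicate 1 was the highest library for all 4 of these members. Proteins with no assigned function were also among the 30, with c120718_g1_i1 at 2883, 1294 and 3686 FPKM, c23210_g1_i1 at 2584, 2022 and 2697 FPKM and c54929_g1_i1 at 2269, 1429 and 2441 FPKM. These were lowest in replicate 2, whereas c79486_g1_i1, with 1286, 1278 and 1074 FPKM, was lowest in replicate 3. Proteins annotated as uncharacterized made up 21718 of the members and 17.3% of the summed FPKM.

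Blue copper proteins were a further abundant family. Of 41 phytocyanins, small copper proteins of the cell surface that take part in electron transfer, 8 had a mean of at least 100 FPKM, and the list held 1.51% of the summed FPKM, but 0.783% of the counts. This list was added after the values had been seen. The cucumber peeling cupredoxin-like unigenes c67122_g1_i1, c77682_g1_i1 and c78143_g1_i1 averaged 2584 ± 797, 2545 ± 641 and 2180 ± 498 FPKM (SD, n = 3), differences that lie within the spread of the libraries.

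Members were also sorted into 53 lists by their annotated names, including a list of uncharacterized proteins, each member in at most 1 list. The functional lists, without the uncharacterized proteins, placed 11227 members. Genes named as mitochondrial or of respiration made up 1292 members and held 3.73% of the summed FPKM. Ubiquitin and proteasome proteins held 2.62%, receptor and other protein kinases 2.61%, and cytosolic and mitochondrial ribosomal proteins 2.48%. The order rests on scaling by length, since by counts kinases held 3.75%, ubiquitin and proteasome proteins 2.84% and these ribosomal proteins 1.44%. By comparison, the Rubisco small subunit held 1.56% in 2 members, of which c88085_g1_i1 alone made up almost the whole. The 4 photosynthesis lists together held 5.90 ± 3.22% in 198 members, and the 4 lists of PR1 to PR5 held 4.92 ± 1.34% in 151 members (SD of the library shares, n = 3).

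**Figure D2:**
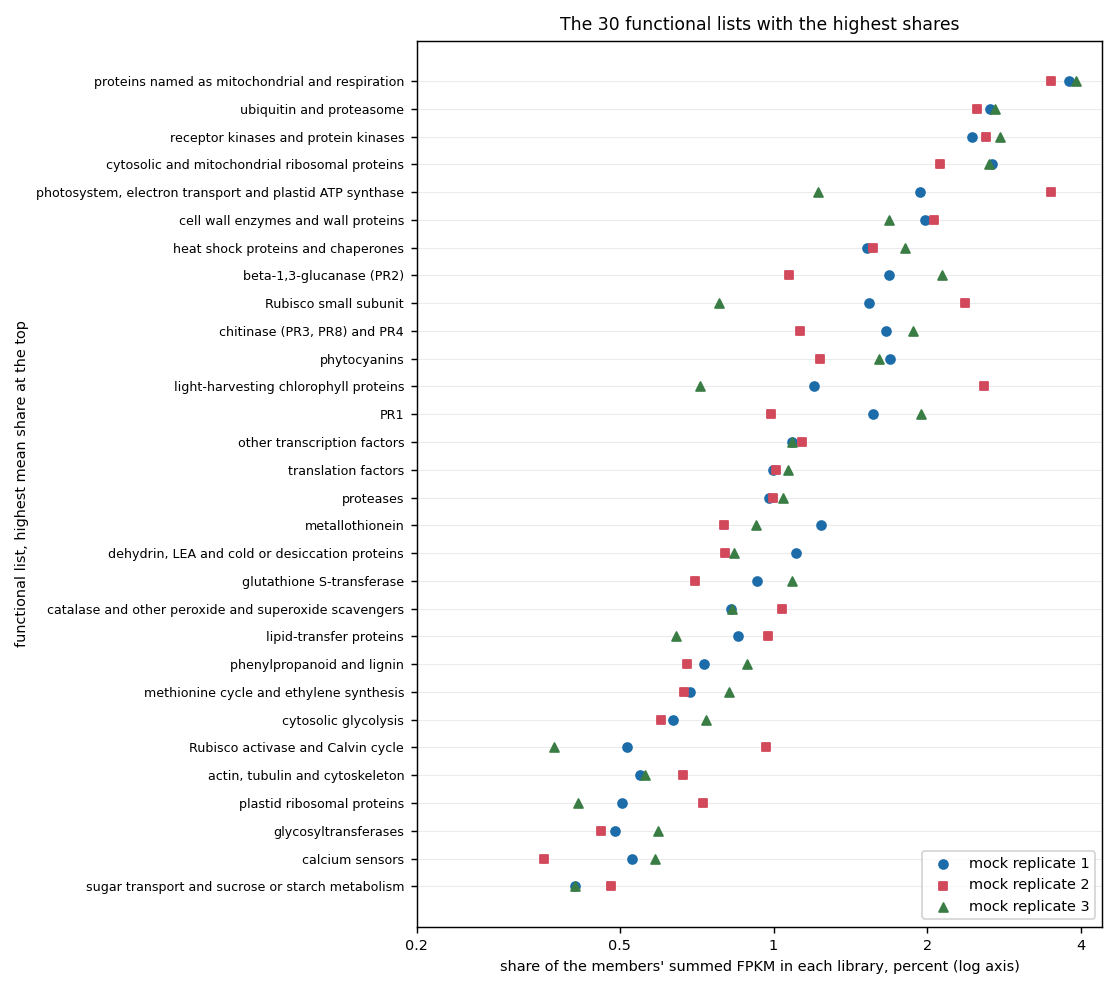
Share of the members' summed FPKM held by each of the 30 functional lists with the highest mean share, in percent on a logarithmic axis, with a symbol for each mock library. The photosynthesis lists and the PR1, PR2 and chitinase lists are spread widely among libraries and in opposite order, while lists such as proteases and translation factors lie close together near 1%.

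Most transcripts of the photosynthesis lists varied together. The 4 lists (Rubisco small subunit, light-harvesting proteins, photosystem and electron transport proteins, Calvin cycle) held 5.19, 9.42 and 3.09% of the summed FPKM in mock replicates 1, 2 and 3. Of their 109 members with a mean of at least 10 FPKM, 99 were highest in replicate 2 and 90 had the order replicate 2, then 1, then 3. Over all 10103 members at that level, 35.7% were highest in replicate 2 and 17.7% had that order. Without replicate 2 the mean share was 4.14%. The plastid-sequence unigenes outside the members had the same order of libraries, and their part in this result was not tested. In leaf tissue sampled in bulk, fewer mesophyll cells and less of these RNAs per cell cannot be told apart. The word patterns left some photosynthesis names in no list. Among these, PsbO3 (c95186_g2_i1) was highest in replicate 2, with 568, 955 and 346 FPKM in replicates 1, 2 and 3. The Calvin cycle protein CP12-1 (c83360_g1_i1) was highest in replicate 1, with 618, 578 and 465 FPKM.

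All 19 light-harvesting members with a mean of at least 10 FPKM had the order replicate 2, then 1, then 3. CP26 (c89967_g1_i1), a minor antenna protein of photosystem II, had 1859, 4439 and 1129 FPKM in replicates 1, 2 and 3, a 3.93-fold range. Another minor antenna, CP29.1 (c96996_g16_i1), had 1060, 2282 and 564 FPKM. The chlorophyll a/b binding proteins 37 (c89218_g1_i1) and 13 (c160137_g1_i1) averaged 1425 ± 851 and 1143 ± 613 FPKM (SD, n = 3). Each was lowest in replicate 3. The photosystem I subunit XI (c90038_g1_i1) had 1080, 1612 and 687 FPKM, and subunit II (c88104_g1_i1), which docks ferredoxin, had 822, 1752 and 517 FPKM. The PsbQ protein of the oxygen-evolving complex (c85584_g1_i1) had 926, 1728 and 490 FPKM. Of the 66 members of that list with a mean of at least 10 FPKM, 60 were highest in replicate 2.

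Stroma enzymes followed. The plastid glyceraldehyde-3-phosphate dehydrogenase A (c92462_g1_i1), of the Calvin cycle, had 1056, 2379 and 659 FPKM, and phosphoribulokinase (c94454_g1_i1), which makes the acceptor of carbon dioxide, had 477, 641 and 295 FPKM. Rubisco activase 1 (c97829_g1_i1), which keeps Rubisco active, had 203, 438 and 148 FPKM. A chloroplast carbonic anhydrase (c95303_g8_i2), which interconverts carbon dioxide and bicarbonate, spread further than any of these, with 408, 997 and 119 FPKM. The mitochondrial gamma carbonic anhydrase c90457_g1_i1 had 151, 167 and 142 FPKM, a 1.18-fold range.

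Other groups tied to the plastid or to photosynthesis were highest in replicate 2 more often than the 35.7% of all members. This held for 38 of 47 plastid ribosomal proteins and for 27 of 32 chlorophyll and carotenoid enzymes, of which 35 and 21 had the order replicate 2, then 1, then 3. Geranylgeranyl reductase (c89902_g1_i1), which supplies the tail of chlorophyll, had 138, 273 and 98.1 FPKM. Photorespiration, which runs through plastid, peroxisome and mitochondrion and recovers carbon lost to the oxygenase reaction of Rubisco, was highest in replicate 2 in 15 of 22 members, led by a mitochondrial serine hydroxymethyltransferase (c96597_g1_i4) with 448, 625 and 368 FPKM. The P-protein of glycine decarboxylase (c100117_g1_i1) varied less, with 330, 322 and 289 FPKM.

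**Figure D3:**
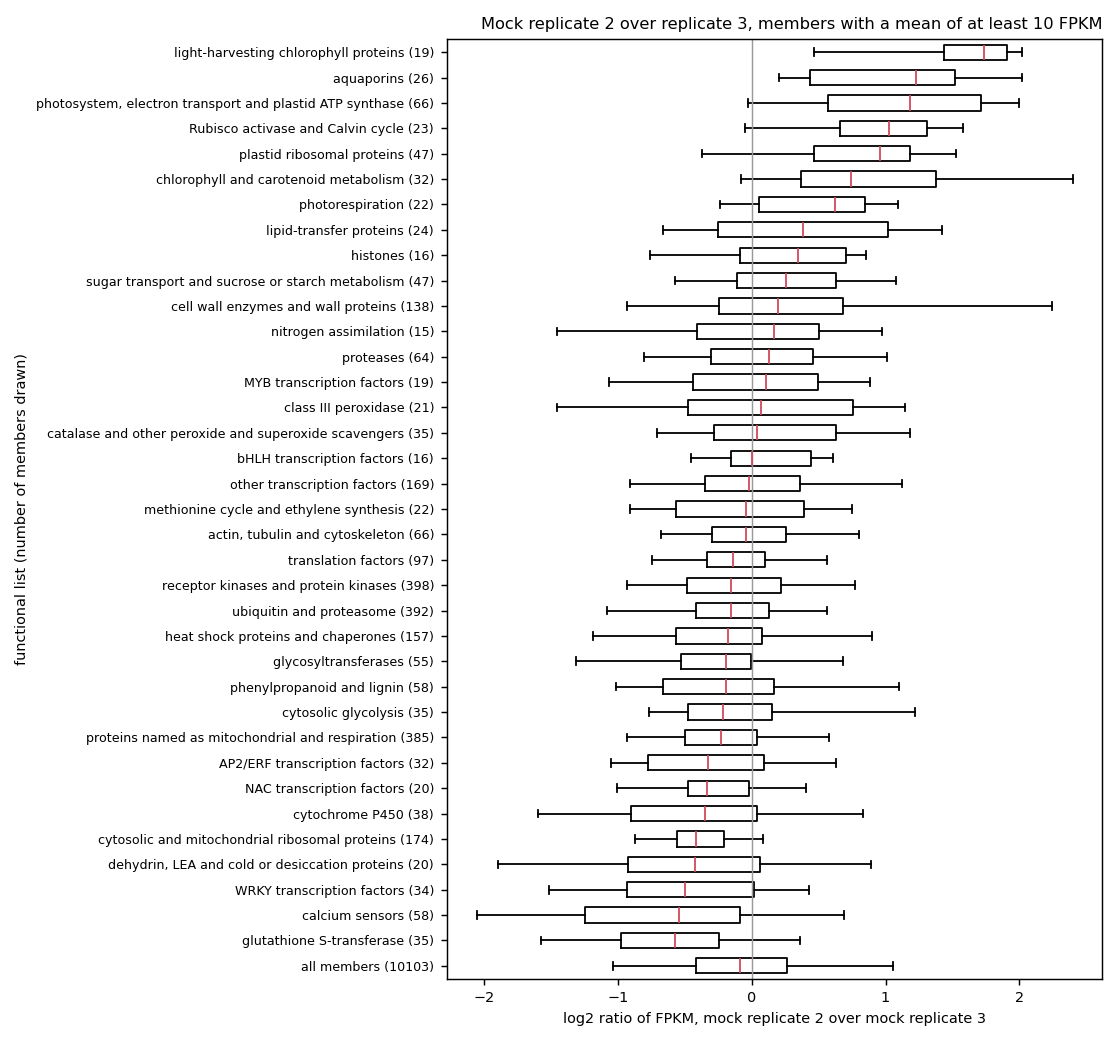
Log2 ratio of FPKM in mock replicate 2 over mock replicate 3 for members with a mean of at least 10 FPKM, in the 36 lists with at least 15 such members and in all 10103 members (bottom row). Boxes span the quartiles, the red stroke is the median and the whiskers reach from the 5th to the 95th percentile. Medians run between 1.74 for light-harvesting proteins and -0.57 for glutathione S-transferases, against -0.09 for all members. Replicates 2 and 3 were chosen for the plot after their values had been seen.

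PR transcripts were led by 1 unigene per family. The glucanase gi9 made up 95.5% of the summed FPKM of 81 beta-1,3-glucanase members, PR1a 91.2% of 5 PR1 members, and the chitinase Q 80.1% of 35 chitinase and PR4 members. Together with osmotin-like proteins the lists held 5.10, 3.49 and 6.16% of the summed FPKM in replicates 1, 2 and 3. Without replicate 2 the mean share was 5.63%. The sum was lowest in the library in which the photosynthesis sum was highest.

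Not all PR members had the order of the leading unigenes. The basic PR1 (c134230_g1_i1) had 704, 1005 and 846 FPKM and osmotin (c80886_g1_i1), a basic PR-5 protein with antifungal activity, had 761, 1417 and 804 FPKM, so both were highest in replicate 2. The minor form of PR-R (c63406_g1_i1), a thaumatin-like PR-5 protein, had 348, 355 and 356 FPKM, a coefficient of variation (CV, the SD as a percent of the mean) of 1.25%. A PR4-like endochitinase (c147228_g1_i1) had 840, 510 and 906 FPKM and the basic endochitinase c101466_g1_i1 had 396, 235 and 416 FPKM. These had the order of the leading acidic forms. Of 26 PR members with a mean of at least 10 FPKM, 9 had the order replicate 3, then 1, then 2 (34.6%, against 23.8% of all members at that level), among them 4 of 8 beta-1,3-glucanases. By highest library, 12 were highest in replicate 2, 12 in replicate 3 and 2 in replicate 1, against 35.7, 37.9 and 26.6% of all members.

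Small defence peptides were expressed in a mixed manner. The most abundant defensin (c160225_g1_i1), a cysteine-stabilised antimicrobial peptide, had 799, 166 and 575 FPKM in replicates 1, 2 and 3, and defensin-like protein 2 (c147977_g1_i1) had 348, 536 and 264 FPKM. Snakin-2 (c78928_g2_i1), an antimicrobial peptide first known from potato, had 150, 377 and 36.9 FPKM, a 10.2-fold range. Protease inhibitors held 0.275% of the summed FPKM, led by a Kunitz trypsin inhibitor (c148003_g1_i1) with 382, 492 and 315 FPKM. Class III peroxidases, secreted enzymes that use hydrogen peroxide in the wall, numbered 106 members, of which 6 reached 100 FPKM. Their leading unigene, a suberization-associated anionic peroxidase (c96980_g1_i3), had 259, 347 and 285 FPKM.

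Transcripts of capsidiol synthesis, the pathway of the main sesquiterpene phytoalexin of tobacco, were abundant. The 5-epi-aristolochene synthase c100914_g1_i1, which commits farnesyl pyrophosphate to this pathway, had 1010, 787 and 1334 FPKM. A farnesyl pyrophosphate synthase (c91711_g1_i1), which makes its substrate, had 548, 482 and 706 FPKM. The 5-epi-aristolochene dihydroxylase that acts after it was lower, with 101, 89.2 and 128 FPKM for c98538_g6_i1. All 3 were lowest in replicate 2 and highest in replicate 3. In phenylpropanoid synthesis, caffeic acid O-methyltransferase (c95115_g2_i2) had 395, 403 and 513 FPKM and phenylalanine ammonia-lyase (c97284_g10_i1), which opens the pathway, had 139, 126 and 143 FPKM.

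Detoxification and peroxide-removing enzymes had several abundant members. Glutathione S-transferases, which couple glutathione to reactive compounds, held 0.905% of the summed FPKM, and 16 of 75 reached 100 FPKM. They were lowest in replicate 2 in 26 of 35 members with a mean of at least 10 FPKM, against 42.6% of all members at that level. The leading unigene, c95598_g4_i2, had 1026, 573 and 1263 FPKM. Catalase isozyme 1 (c160300_g2_i1), a peroxisomal enzyme that breaks down hydrogen peroxide, had 838, 1994 and 990 FPKM and was highest in replicate 2. Peroxiredoxin 2B (c101371_g1_i1) and monodehydroascorbate reductase (c91538_g1_i1), which regenerates ascorbate, averaged 1140 ± 88.0 and 1039 ± 145 FPKM (SD, n = 3).

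Ethylene synthesis was represented in the top 30 by its last enzyme. The ACC oxidase unigenes c93214_g4_i2 and c93214_g3_i4 had 1343, 1951 and 1878 FPKM and 1784, 822 and 2070 FPKM in replicates 1, 2 and 3. They differed in order, although the assembler placed them under one cluster number, and reads of similar copies may have been divided between them. S-adenosylmethionine synthase 1 (c93988_g1_i2), which supplies the precursor, had 285, 307 and 341 FPKM. S-adenosylmethionine decarboxylase (c93109_g1_i1), which diverts it to polyamines, had 640, 754 and 859 FPKM.

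Surface and wall proteins had high single unigenes. Glycine-rich proteins c93944_g2_i1 and c50729_g1_i2 had 3848, 2636 and 2863 FPKM and 1602, 2124 and 902 FPKM. A classical arabinogalactan protein 4-like unigene (c80780_g1_i1), a heavily glycosylated surface protein, had 946, 996 and 1236 FPKM. Lipid-transfer proteins, secreted carriers found at high level in the epidermis, held 0.823% of the summed FPKM in 67 members. The leading one, c121602_g1_i1, had 1404, 1884 and 1018 FPKM, and c107922_g1_i1 had 1168, 1121 and 1001 FPKM. Among stress proteins, a pair of TAS14-like dehydrins, named after an abscisic acid-induced protein of tomato, was far higher in replicate 1 than in the other libraries. The values were 469, 91.1 and 126 FPKM for c107933_g1_i1 and 403, 102 and 214 FPKM for c108066_g1_i1.

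Ribosomal proteins not named as plastid, listed here as cytosolic and mitochondrial, were mostly lowest in replicate 2. These cytosolic and mitochondrial proteins summed to 17561, 13412 and 17380 FPKM in replicates 1, 2 and 3, and 149 of 174 members with a mean of at least 10 FPKM were lowest in replicate 2, against 42.6% of all members. The order replicate 1, then 3, then 2 was found in 84 and replicate 3, then 1, then 2 in 64. The leading unigene, 60S L17-1-like (c89610_g2_i1), had 417, 324 and 384 FPKM. The acidic protein P0 of the 60S subunit (c94689_g5_i1) was an exception with 313, 360 and 366 FPKM. No ribosomal protein was among the 100 most abundant members except the plastid L31 (c85444_g2_i1), which ranked 92 with 577, 510 and 469 FPKM. Translation factors were lowest in replicate 2 in 41 of 97 members, close to that background, and their sum had a CV of 5.02%. Their leading member, the translationally controlled tumor protein c92866_g13_i1, had 630, 619 and 564 FPKM.

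In the endoplasmic reticulum, calreticulin-3 (c94026_g2_i1), a lectin chaperone that in *Arabidopsis* helps to fold an immune receptor, had 1241, 1154 and 1732 FPKM. It was higher than the luminal binding protein (c97839_g5_i1), with 285, 357 and 433 FPKM, and the endoplasmin homolog (c100508_g1_i1), with 274, 485 and 439 FPKM, in every library. In central metabolism, the cytosolic glyceraldehyde 3-phosphate dehydrogenase (c94565_g1_i1), of glycolysis, had 1329, 1016 and 1732 FPKM, the mitochondrial ADP,ATP carrier c94629_g1_i2 had 538, 556 and 595 FPKM, and malate dehydrogenase (c76656_g1_i1) had 509, 489 and 504 FPKM. The dehydrogenase of glycolysis was lowest in replicate 2 and highest in replicate 3, while the carrier and malate dehydrogenase differed little between libraries.

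Transport genes included strong differences between libraries. Aquaporins, the water channels of the plasma membrane and tonoplast, were highest in replicate 2 in 25 of 26 members with a mean of at least 10 FPKM. Of all members at that level, 35.7% were highest there. PIP2-4-like (c86068_g1_i1) had 240, 551 and 164 FPKM, and TIP1-1 (c90899_g8_i1), of the tonoplast, had 117, 304 and 75 FPKM. A unigene annotated only as water channel protein (c91698_g1_i2), which the list of aquaporins did not take in, had 291, 843 and 224 FPKM. The PDR-type transporter c90500_g1_i1, of the family that exports small molecules across the plasma membrane, had 1230, 1187 and 1468 FPKM and varied far less, with a CV of 11.7%. It is a contig of 376 bases. A longer PDR-type unigene (c100960_g1_i1, 4362 bases) varied more, with 429, 550 and 850 FPKM and a CV of 35.5%. Sugar transport protein 13 (c97895_g1_i1), a hexose importer, had 360, 311 and 451 FPKM, and a cell wall invertase (c23296_g1_i1), which splits sucrose outside the cell, had 241, 222 and 321 FPKM. A sucrose transporter (c95034_g1_i1) had the other order, with 444, 578 and 328 FPKM. Asparagine synthetase (c91737_g1_i1), which stores nitrogen in asparagine, was 6.98-fold higher in replicate 2 than in replicate 3, at 41.6, 199 and 28.5 FPKM.

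Proteases were led by cysteine enzymes, and their summed FPKM had a CV of 4.33%. Single members varied more than their sum. The 64 proteases with a mean of at least 10 FPKM had a median CV of 22.5%, against 18.1% for all members at that level. A range of 2-fold or more was found in 28.1% of them, against 15.1% of all members. The aleurain-type proteinase c70781_g1_i1 had 1757, 1238 and 2006 FPKM, and the papain-like cysteine proteinase 6 (c160129_g1_i1) had 808, 714 and 789 FPKM.

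Few transcription factors were abundant. The 1640 members of 6 lists held 1.93% of the summed FPKM, and 12 of them reached 100 FPKM, against 1020 of all 52512 members. The highest by name was a homeobox protein 2-like unigene (c89775_g1_i1) with 396, 544 and 534 FPKM, for which the deposited annotation lists no Pfam domain, followed by the heat stress factor B-3-like c53984_g1_i1 with 402, 176 and 456 FPKM. A unigene named DIVARICATA-like factor (c23445_g1_i2) had 343, 330 and 325 FPKM and a CV of 2.87%, but its annotation is mixed. Its *Arabidopsis* match is a MYB factor, whereas its Swiss-Prot match and its Pfam domain are those of a copper/zinc superoxide dismutase. The most abundant NAC factor, the NAC72-like c23221_g1_i1, had 218, 131 and 195 FPKM. None of the 126 WRKY members, a family of regulators tied to defence, reached a mean of 100 FPKM. The highest were WRKY15 (c82673_g3_i1) with 103, 68.1 and 119 FPKM and WRKY11 (c89550_g1_i1) with 120, 66.5 and 101 FPKM. WRKY members with a mean of at least 10 FPKM were lowest in replicate 2 in 21 of 34 cases, against 42.6% of all members at that level. The highest MYB and bHLH members were MYB1R1-like (c90355_g1_i1) at 95.3 ± 25.1 FPKM and bHLH149-like (c89423_g1_i1) at 70.7 ± 14.5 FPKM (SD, n = 3). The highest AP2/ERF member, RAP2-13-like (c92917_g5_i1), had 99.9, 145 and 99.6 FPKM.

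Signalling components were moderately abundant. A BAK1-like receptor kinase (c95654_g8_i2), the co-receptor of many surface receptors, had 660, 537 and 691 FPKM, the highest of 1868 kinase members. The wound-induced protein kinase (c160122_g1_i1), a MAP kinase first described in tobacco, had 319, 274 and 350 FPKM. Calcium sensors were lowest in replicate 2 in 40 of 58 members with a mean of at least 10 FPKM, against 42.6% of all members at that level. A calmodulin-like unigene (c85574_g1_i1) had 251, 89.4 and 272 FPKM and CML41 (c91220_g4_i1) had 209, 79.5 and 284 FPKM, so replicates 1 and 3 lay well above replicate 2 for both.

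Spread among libraries was well above counting error in each class from 1 FPKM upward. The median CV was 32.1% for members between 1 and 10 FPKM, 17.8% between 10 and 100, 19.6% between 100 and 1000 and 30.2% from 1000 FPKM upward. Poisson counting error alone would give median CVs of 17.3, 4.55, 1.91 and 0.630% in these classes. Among members above 0 but under 1 FPKM the median CV was 93.4%, close to the 86.6% from counting error alone. The most abundant class was thus measured with the least counting error and had a larger spread than the 2 classes below it. A range of 2-fold or more between libraries was found in 43.9% of members from 1000 FPKM upward, in 19.5% between 100 and 1000 FPKM and in 14.5% between 10 and 100 FPKM. Among members with a mean of at least 10 FPKM, 2.60% differed by 2-fold or more between replicates 1 and 3, against 8.80% between replicates 1 and 2 and 11.2% between replicates 2 and 3.

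**Figure D4:**
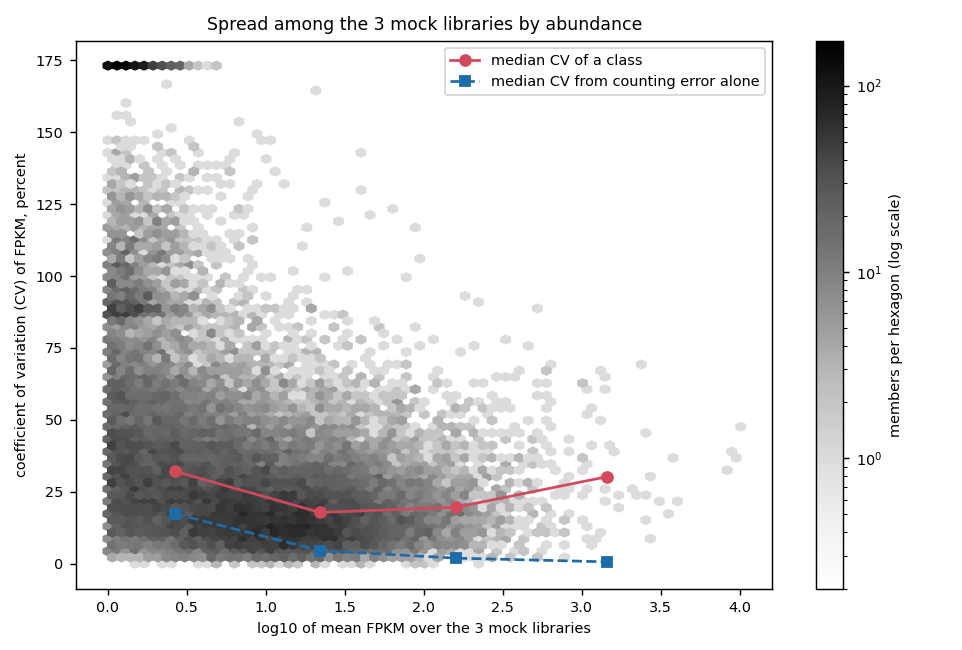
CV of FPKM over the 3 mock libraries against the log10 of mean FPKM, for 26681 members with a mean of at least 1 FPKM, drawn as hexagons shaded by the number of members. Circles are the median CV of each abundance class (32.1, 17.8, 19.6 and 30.2%) and squares the median CV that counting error alone would give. The difference between them is larger in the 2 most abundant classes than in the 2 below.

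Among the 1020 members with a mean of at least 100 FPKM, the 15 with the highest CV were led by snakin-2 at 92.1%, the TAS14-like dehydrin c107933_g1_i1 at 91.4% and the chloroplast carbonic anhydrase at 88.0%. They also held 5 light-harvesting unigenes, 3 photosystem proteins, TIP1-1, the water channel protein and a glycine-rich wall protein (c83221_g2_i2) with 87.7, 227 and 47.9 FPKM. A ribosomal protein L12-1a (c85278_g1_i1) had 98.7, 223 and 59.3 FPKM. Its name gives no compartment, and it was counted in the list of cytosolic and mitochondrial ribosomal proteins. Of these 15, all but the dehydrin were highest in replicate 2 and lowest in replicate 3.

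The 15 with the lowest CV had mixed functions. A 60S ribosomal protein L8-like unigene (c92247_g4_i2) had 226, 223 and 228 FPKM, a CV of 0.913%. S-formylglutathione hydrolase (c89890_g1_i1), of formaldehyde detoxification, had 128, 127 and 125 FPKM, and a unigene named synaptotagmin-1 (c93223_g1_i1), whose *Arabidopsis* match and Pfam domain are those of a peroxidase, against that name, had 189, 187 and 184 FPKM. The shaggy-related kinase epsilon (c93079_g4_i1), cytochrome c1-2 (c93390_g1_i1) of the respiratory chain and PR-R minor form were in the same set, with CVs of 1.36, 1.47 and 1.25%. The most abundant of the 15 was the stem-specific protein TSJT1 (c89825_g1_i1) with 836, 825 and 794 FPKM. With 3 libraries, a low CV can arise by chance in some of 1020 members.

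Families often used as references for quantitative PCR differed in the steadiness of their sums. Subunits of protein phosphatase 2A summed to 319, 336 and 343 FPKM over 15 members, a CV of 3.64%. That value holds for the sum and not for single members. The 5 most abundant of them had CVs between 6.26 and 22.3%. The leading unigene of elongation factor 1-alpha (c100916_g3_i4) had 13.9% and that of actin (c97525_g2_i7) 10.2%. Cyclophilins summed to 695, 599 and 682 FPKM (CV 7.96%) and actins to 393, 463 and 419 FPKM (CV 8.23%). Elongation factor 1-alpha had 201, 249 and 264 FPKM, a CV of 13.8%. Ribosomal protein L23 (240, 181 and 237 FPKM), cytosolic glyceraldehyde 3-phosphate dehydrogenase (1370, 1046 and 1774 FPKM) and ubiquitin (256, 142 and 210 FPKM) were each lowest in replicate 2. Tubulins were highest there, with 875, 1531 and 931 FPKM and a CV of 32.7%. The ubiquitin sum is partial, since 20 further polyubiquitin unigenes had protein matches outside the 2 genera and summed to 4882, 4826 and 5404 FPKM. Its leading member (c121180_g1_i1) had 243, 134 and 198 FPKM and is named polyubiquitin. The first Pfam domain listed for it is DUF4139 and not ubiquitin. The spread of the sum is thus not that of the whole family.

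**Figure D5:**
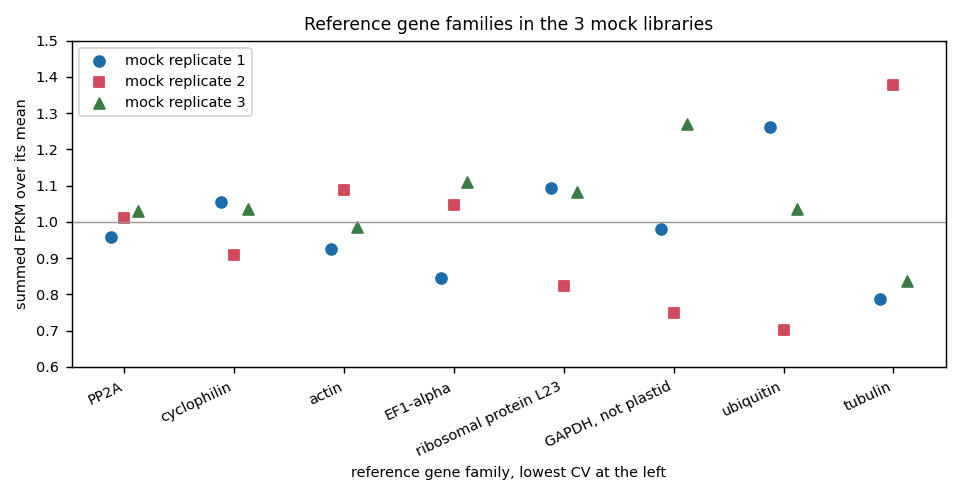
Summed FPKM of 8 reference gene families in each mock library, divided by the mean over the 3 libraries, with the lowest CV of a sum at the left. The sums cover unlike numbers of members, and the ubiquitin sum leaves out the polyubiquitin unigenes outside the members. The 3 symbols of protein phosphatase 2A nearly coincide (CV 3.64%), while those of tubulin are the most separated (CV 32.7%).

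The tissue label was checked against cell type markers. Mesophyll markers (Rubisco small subunit, chlorophyll binding proteins and carbonic anhydrase) summed to 18751, 32761 and 10388 FPKM over 54 members in replicates 1, 2 and 3. Epidermis and trichome markers, mainly lipid-transfer proteins, summed to 3405, 3276 and 2505 FPKM over 46 members. Guard cell markers summed to 34.1, 42.6 and 39.6 FPKM over 21 members, none of which reached a mean of 10 FPKM. They were unigenes named as the factor FAMA, as ion channels or as epidermal patterning factors. Whether the names of patterning factors mark guard cells in a leaf was not tested. The anion channel SLAC1 (c63228_g1_i1), which drives stomatal closure, had 5.63, 10.1 and 6.92 FPKM. Members of this list differed in order, and the epidermal patterning factor-like protein 6 (c81169_g1_i1) had 2.54, 1.34 and 2.13 FPKM. Phloem markers summed to 166, 102 and 147 FPKM and xylem markers to 86.5, 191 and 145 FPKM. The only root marker found, putrescine N-methyltransferase 4 (c156221_g1_i1) of nicotine synthesis, had 0 counts in each library, where 3 counts would equal between 0.210 and 0.249 CPM, the count scaled to the library total. Unigenes matched by name to meristem and to flower and pollen summed to 263 and 191 FPKM on average. The meristem names were mostly KNOX homeobox proteins such as LET12 (c87553_g4_i1), with 70.2, 133 and 87.8 FPKM. Those of flower and pollen were mostly extensin-like proteins named as pollen-specific. Whether such names mark these tissues in a leaf was not tested, so the sums do not show that the tissues were present. Among these lists the order replicate 2, then 1, then 3 was that of the mesophyll sum alone, which shares members with the photosynthesis lists. The phloem list did not take in the sucrose transporter c95034_g1_i1, which had that order and exceeded the phloem sum in each library. Guard cell, xylem and meristem sums were also highest in replicate 2. The part of cell type makeup in the spread among libraries was not tested.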

How the data were processed

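The authors cleaned the reads with Trimmomatic and built a de novo assembly with Trinity. Redundancy was reduced by CD-HIT-EST, reads were aligned to the resulting unigenes by Bowtie2, and abundance was estimated by RSEM. No genome was used. In the deposited table each count gives the read pairs assigned to a unigene, without normalization. These counts equal the deposited RSEM expected counts, all whole numbers, in the 3 mock libraries. The deposited FPKM values were made by the authors from these counts, the effective unigene length and the total count, and recomputing them differed by at most 0.583% for unigenes with at least 50 counts. The deposited TPM values were read only to check the files, and the TPM alternative was rescaled from the FPKM of the members alone. Lengths and names are those of the deposited annotation.

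Means, SDs and CVs were computed on FPKM in Python 3.11.15 with pandas 2.3.3 and numpy 2.4.6, and plots were drawn with matplotlib 3.10.9. With a single group there is no test and no p-value. The calculations were tested on simulated data. Counting error was taken as the Poisson error of the counts, and covers no variation between plants. Lists were made by matching words in the first protein name. Unigenes named are the 30 most abundant members, members among the 5 highest of a list, the 15 highest and the 15 lowest CVs from 100 FPKM upward, the 10 highest transcription factors, and members of reference families and marker lists. Phenylalanine ammonia-lyase, the 5-epi-aristolochene dihydroxylase, the PDR-type unigene c100960_g1_i1, the polyubiquitin sum and the unigenes outside the members fall outside this rule. They were chosen after their values were seen. The members and lists were chosen with earlier results of these data known, word patterns were corrected after annotated names had been read, and the phytocyanin list was added after values had been seen. Similar gene copies may have been merged or divided by assembly. The overexpression libraries were not analysed here. No sequences are printed, since the files used here hold none.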

Additional observations from a re-analysis of the deposited data

Results flagged for a closer look

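The 6 results here come from unigenes outside the members. The banana WRKY match and the yeast, *Agrobacterium* and *Escherichia* sets were listed because their counts in the mock libraries exceeded the 3 counts that a count of 0 allows. The ribosomal RNA and plastid unigenes were picked by name, without that rule. The unigene c147189_g1_i1, 2535 bases long and matched to a banana WRKY protein, averaged 41.2 FPKM, with 1617, 781 and 1455 counts in mock replicates 1, 2 and 3. The other unigenes matched to banana WRKY proteins, c149239_g1_i1 and c161890_g1_i1, had 1 count and 0 counts over the 3 libraries. Unigenes matched to yeasts, 3444 in number, held 35135 counts over the 3 libraries, or 0.0981, 0.0925 and 0.0662% of the total count. Unigenes matched to *Agrobacterium* held 933 counts, with 337, 434 and 162 in replicates 1, 2 and 3. Those matched to *Escherichia* held 4553 counts, with 1820, 1452 and 1281. A ribosomal RNA unigene (c54816_g1_i1) averaged 1633 FPKM, with 2139, 2156 and 603 FPKM, and was lowest in replicate 3. A unigene with plastid sequence (c96374_g3_i2) averaged 1122 FPKM, with 1320, 1820 and 225 FPKM, and was also lowest in replicate 3. Groups of 3 libraries were not tested for outliers.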

How the results depend on the processing

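The values rest on 3 pooled libraries, and the spread among them, not the count depth, limits levels from 10 FPKM upward. No paired analysis was possible because the report covers 1 group and its results come from no test. Without the restriction on protein matches, 58437 unigenes reached 1 FPKM, against 26681 members, and the top 10, 100 and 1000 held 6.91, 17.9 and 39.5% of the summed FPKM. In counts, which favour long unigenes, they held 6.41, 17.96 and 44.7%. When 1000 FPKM had to be reached in each library, 25 members did, against 41. The median CV of 25.1% from 1 FPKM upward was 20.7% as the SD of log2(FPKM + 1) times ln 2, 43.4% without a filter and 18.1% from 10 FPKM upward. Leaving out 1 library at a time, it ranged from 17.2%, without replicate 2, to 23.3%. These CVs come from 2 libraries each, so they cannot be set directly against the 25.1% from 3. The share of the top 100 ranged from 21.6% to 22.3%, the higher one without replicate 2. The photosynthesis share ranged from 4.14%, without replicate 2, to 7.31%, without replicate 3, and the PR1 to PR5 share from 4.29 to 5.63%. Of the 30 most abundant members, 25 to 30 stayed among the top 30 with a library left out. Rescaling, tried after the data had been seen, gave 101 photosynthesis members highest in replicate 2 by median ratio and by TPM, against 99, and 142 and 139 ribosomal proteins lowest there, against 149. Among 54 single groups of members, 34 shares moved by more than 1 SD when counts replaced FPKM.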
